A study of Homo sapiens with 8 samples.

Results

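Guides against aminoacyl-tRNA synthetase genes were taken from a pooled dropout screen. Members were chosen by gene symbol: a letter for the amino acid followed by ARS, or EPRS, FARSA or FARSB, with or without a final digit, leaving out guides typed as non-essential controls. The rule found 1616 of 46829 guides, which target 222 of 6735 exon junctions in 20 of 1250 genes. Of these, 1193 guides and 168 junctions belonged to 13 genes of cytosolic enzymes (CARS, DARS, FARSA, FARSB, HARS, IARS, KARS, LARS, MARS, QARS, SARS, VARS and YARS), and 423 guides and 54 junctions belonged to 7 genes of mitochondrial enzymes, whose symbols end in 2, among them CARS2, LARS2, NARS2, RARS2, WARS2 and YARS2. KARS encodes the lysine enzyme of both compartments and was counted as cytosolic.

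The screen used A375, an established human melanoma line, as a single clone that carries RfxCas13d under a doxycycline-inducible promoter. RfxCas13d is a CRISPR nuclease that cuts RNA, and here each guide was aimed at the junction of a pair of exons in a spliced transcript. There were 8 libraries of the integrated guides: 2 replicates without treatment at Day 0, and 2 replicates each at Day 7, Day 14 and Day 21 with doxycycline at 1 ug/ml. Every sample, Day 0 included, carried the Cas13d transgene, and no sample without it was compared. The deposited table calls the replicates biological, and the labels do not say whether they were separate cultures. The p-values measure the spread between these samples, and that spread is estimated in part or wholly from all features of a fit together.

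Aminoacyl-tRNA synthetases join each amino acid to its transfer RNA, which makes them indispensable for reading messenger RNA on ribosomes. Human cells hold one set for the cytosol and another for the mitochondrial ribosome, and both sets are encoded in the nucleus. The enzymes fall into a pair of structural classes, I and II, and several cytosolic members sit together in the multisynthetase complex. Loss of a guide from the pool over time is the readout here: cells that grow less than the rest leave fewer copies of the guide they carry.

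The value of a guide was the deposited log2 fold change between a day and Day 0 of the same replicate, so that a value of -1 is a 2-fold loss. The value of a gene or junction in a library was the mean over its guides. Each day was compared with 0 by limma with Benjamini-Hochberg adjustment over all genes or junctions with at least 3 guides, or over all guides, and called lower or higher means an adjusted p under 0.05. Comparisons of different days share their replicate's Day 0 library. Read depth was not stated, but all values had the form of ratios of whole numbers, and the smallest whole number at Day 0 that fits a synthetase guide had a median of 93 in replicate 1 and 127 in replicate 2. At Day 21 the median of all guides was -0.334 in replicate 1 and -0.28 in replicate 2, whereas that of the 963 non-targeting guides was -0.038 and 0.001, so the sign of a gene near 0 depends on which of these is taken as no change.

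At the level of genes, loss of guides was called for cytosolic synthetases alone, after Day 7, and was uneven between them. At Day 7 limma called 0 of 20 genes, with 0 at an unadjusted p under 0.05, where 3.92% of all genes tested were called lower. At Day 14 it called 4 of 20 lower, namely SARS, IARS, LARS and FARSA, against 22.1% of all genes. At Day 21 it called 3 of 20 lower, SARS, IARS and LARS, against 20.8% of all genes, and these 3 were also called at Day 14. All calls were cytosolic and none was higher, which makes 23.1% of the 13 cytosolic genes at Day 21, a share close to the background. Of the 809 other genes that carry the deposited GeCKO gene score, 28.6% were called lower at Day 21. The count at Day 21 depended on the processing: 0 genes were called with the median in place of the mean of a gene's guides, 1 with values centred on the non-targeting guides and 10 with all days in a single fit, where 2.04%, 16.4% and 41.9% of all genes were called in the same fits. With the replicate number as a block in the single fit the same number, 10, was called, against 51.1% of all genes. Both single fits share an estimate of spread over the days. The spread between replicates grew with time, so that estimate is too small for Day 21. With replicate 1 or replicate 2 of Day 21 left out, in a fit that takes the spread of the lone library from the other days, 5 and 8 genes were called, against 31.0% and 36.9% of all genes. The same exclusion at Day 14 left 1 gene without replicate 1 and 2 genes without replicate 2, against 14.5% and 12.3%.

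Most synthetase means were on the same side of 0. The means of 17 of 20 synthetase genes were below 0 in both replicates at Day 21, 12 of 13 cytosolic and 5 of 7 mitochondrial, where 61.3% of all genes were. All genes include the non-essential control genes, of which 32.5% were. Of the 809 other genes that carry the deposited GeCKO gene score, as the synthetases do, 74.8% were. The median of the gene means was -0.53 for cytosolic and -0.11 for mitochondrial enzymes, against -0.28 over all genes tested and -0.43 over the other scored genes. The exceptions were HARS among the cytosolic genes and WARS2 and YARS2 among the mitochondrial genes.

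SARS, which charges serine tRNA and is a class II enzyme outside the multisynthetase complex, had the lowest mean of the 20 genes at Day 14 and Day 21. Its 39 guides averaged -0.07 and -0.36 in replicates 1 and 2 at Day 7, -1.45 and -1.57 at Day 14, and -1.76 and -1.70 at Day 21. Both Day 14 and both Day 21 libraries lay far below both Day 7 libraries. The Day 21 mean was -1.73 (SE 0.14, n = 2, limma adjusted p = 0.0126), a 3.31-fold loss. From Day 7 to Day 21 SARS fell by 1.52 (SE 0.22, limma adjusted p = 0.00032), in 2 of 2 replicates. Its median guide stood at -1.76 and -1.09 in the 2 replicates at Day 21, and the fit on gene medians gave -1.42 with an adjusted p of 0.103.

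IARS and LARS, the class I enzymes for isoleucine and leucine, are both members of the multisynthetase complex. The 172 guides of IARS averaged -0.13 and -0.37 at Day 7, -0.64 and -0.78 at Day 14, and -0.75 and -0.95 at Day 21. The 50 guides of LARS averaged -0.08 and -0.19 at Day 7, -0.77 and -0.57 at Day 14, and -0.71 and -0.83 at Day 21. For both genes every Day 14 and Day 21 library was below every Day 7 library, and Day 14 and Day 21 overlapped for both. At Day 21 IARS was at -0.85 (SE 0.15, n = 2, limma adjusted p = 0.0412) and LARS at -0.77 (SE 0.15, n = 2, limma adjusted p = 0.0463), losses of 1.80-fold and 1.71-fold. Neither call held with values centred on the non-targeting guides, where IARS was at -0.83 (limma adjusted p = 0.0623) and LARS at -0.75 (0.063). With the median of a gene's guides IARS was at -0.48 (limma adjusted p = 0.222) and LARS at -0.34 (0.291). LARS fell by 0.64 from Day 7 to Day 21 (SE 0.21, limma adjusted p = 0.0477), while the same difference for IARS was -0.60 (limma adjusted p = 0.0603). SARS and LARS were the 2 of 20 genes called lower at Day 21 than at Day 7, against 23.5% of all genes, and 1 gene was called with either Day 21 library left out.

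FARSA and FARSB encode the alpha and beta subunits of one enzyme, the cytosolic phenylalanine synthetase. FARSA averaged -0.11 and -0.24 at Day 7, -0.61 and -0.55 at Day 14, and -0.68 and -0.71 at Day 21. It was called lower at Day 14 (-0.58, SE 0.13, limma adjusted p = 0.0461) and missed the threshold at Day 21 (-0.69, SE 0.14, limma adjusted p = 0.0539). FARSB was at -0.57 and -0.50 at Day 21, with a mean of -0.53 and a limma adjusted p of 0.0868. With the replicate block in a single fit of all days, both were called (limma adjusted p = 0.00201 for FARSA and 0.00789 for FARSB). That fit called 51.1% of all genes, and its shared spread is too small for Day 21. The subunits differed by less than the sum of their standard errors, and the difference itself was not tested.

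A further 4 class I cytosolic enzymes were close to one another. At Day 21 YARS (tyrosine) had a mean of -0.60, QARS (glutamine) of -0.59, VARS (valine) of -0.51 and CARS (cysteine) of -0.48, with limma adjusted p from 0.0728 to 0.105. Neighbours in this order were separated by less than the SE of 0.14 to 0.15 of each gene. All 4 were called with the replicate block in a single fit of all days (limma adjusted p from 0.00419 for YARS to 0.00771 for CARS), as was DARS (0.0276). That fit called 51.1% of all genes with a spread too small for Day 21, so these calls add little. DARS (aspartate) was at -0.36, and KARS (lysine) and MARS (methionine) were at -0.21 each, with KARS and MARS turning to 0.10 when values were centred on all guides. HARS (histidine) was the one cytosolic gene not below 0: its 57 guides averaged -0.02 and 0.05 at Day 7, -0.13 and 0.35 at Day 14, and 0.00 and 0.39 at Day 21 (limma adjusted p = 0.496 at Day 21). Replicate 2 of HARS was higher than replicate 1 at each of the 3 days.

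The deposited table types each gene as essential or non-essential for Cas13, by a criterion that was not stated and may rest on these same fold changes, so the type supports nothing here. It marks 10 of 13 cytosolic genes as essential, all but HARS, KARS and MARS, which were also the 3 cytosolic genes with the highest Day 21 means. Among the mitochondrial genes it marks NARS2 alone.

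Cytosolic genes were also grouped by structural class and by membership of the complex. At Day 21 the 7 class I genes averaged -0.57 ± 0.0367 (SD, n = 2 replicates) and the 6 class II genes -0.55 ± 0.0632. The 6 genes of the multisynthetase complex averaged -0.50 ± 0.0477 and the 7 outside it -0.62 ± 0.0584. By the mean, class I was the higher group in replicate 1 (-0.55 against -0.60) and the lower one in replicate 2 (-0.60 against -0.51). By the median over genes, class I was the lower group in both replicates, at -0.61 and -0.54 against -0.51 and -0.39. Genes outside the complex were lower in both replicates, at -0.66 and -0.58 against -0.46 and -0.53, and they include both SARS and HARS, the lowest and the highest cytosolic gene. SARS, at -1.76 and -1.70, weighs on the means of class II and of the genes outside the complex. Means of these groups without SARS were not taken, so neither order of means is shown to hold without it.

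Mitochondrial synthetase genes were near the level of the controls. At Day 21 RARS2 (arginine) was lowest at -0.32 and -0.18, followed by NARS2 (asparagine) at -0.03 and -0.24 and LARS2 (leucine) at -0.15 and -0.09. The highest were YARS2 (tyrosine) at 0.55 and 0.04 and WARS2 (tryptophan) at 0.03 and -0.16. CARS2 (cysteine) lay between these at -0.21 and -0.01. Limma adjusted p ran from 0.319 for RARS2 to 0.799 for WARS2, and 0 of 7 had an unadjusted p under 0.05. The 6 means below 0 became positive when values were centred on all guides, from 0.06 for RARS2 to 0.24 for WARS2. YARS2, NARS2 and WARS2 had 15, 16 and 24 guides, the fewest of all 20 genes.

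The earlier days of these genes were as flat. At Day 7 the lowest mitochondrial library mean was -0.08, for YARS2 in replicate 1, and the highest was 0.18, for the same gene in replicate 2. At Day 14 RARS2 stood at -0.24 and -0.12, LARS2 at -0.09 and -0.18, WARS2 at -0.17 and -0.15, and CARS2 at -0.18 and -0.01. NARS2 stood at 0.02 and -0.18 and YARS2 at 0.29 and -0.03.

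The compartments were compared as the mean over genes within each library. Cytosolic genes averaged -0.02 and -0.17 in the 2 replicates at Day 7, -0.50 and -0.42 at Day 14, and -0.57 and -0.56 at Day 21. Mitochondrial genes averaged 0.03 and 0.02, -0.07 and -0.10, and -0.04 and -0.10 at the same days. The cytosolic mean was the lower one in all 6 libraries.

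The difference, cytosolic minus mitochondrial, was -0.12 ± 0.103 (SD, n = 2) at Day 7, -0.38 ± 0.0783 at Day 14 and -0.50 ± 0.0518 at Day 21. Taken from means, it was several times the spread between replicates at Day 14 and Day 21, and about as large as that spread at Day 7. With 2 replicates an exact sign-flip test cannot go below p = 0.5, so no p is given. The difference at Day 21 was -0.40 without SARS, -0.53 without KARS and -0.43 without the lowest junction of each gene. From the median guide of each gene it was -0.28 ± 0.152 (SD, n = 2). From the median over all guides of each compartment it was -0.15 ± 0.0734. These last values lay nearer to their spread between replicates. The difference kept its direction throughout these settings and was smaller where the lowest guides weigh less.

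Against the rest of the screen, the cytosolic mean of -0.56 ± 0.0094 at Day 21 lay between the 809 other scored genes (-0.70 ± 0.027) and the 394 non-essential control genes (-0.15 ± 0.0905). By the median over genes, cytosolic genes were below the other scored genes in both replicates, at -0.57 and -0.53 against -0.48 and -0.37. The mitochondrial mean of -0.07 ± 0.0424 differed from that of the control genes by less than the control genes' own spread between replicates. The share of guides at -1 or lower at Day 21 was 28.9% ± 0.178 for cytosolic, 22.0% for mitochondrial in each replicate, 32.8% ± 1.65 for other scored, 21.7% ± 2.02 for control and 16.8% ± 0.587 for non-targeting guides.

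Cytosolic and mitochondrial enzymes of the same amino acid were compared within 3 pairs. At Day 21 YARS minus YARS2 was -1.21 and -0.59 in the 2 replicates, and LARS minus LARS2 was -0.56 and -0.74. CARS minus CARS2 was -0.23 and -0.52. The cytosolic enzyme was the lower one in both replicates in each of these 3 pairs. At Day 7 this held, among the 3, for LARS alone, where the difference was -0.17 and -0.19. The YARS pair combined a cytosolic gene at -0.66 and -0.54 with the mitochondrial gene of the highest mean.

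At the level of junctions the losses were uneven within most cytosolic genes. Of the 222 junctions, 212 had at least 3 guides and were tested, 158 cytosolic and 54 mitochondrial. At Day 21 limma called 37 of 212 lower (17.5%), against 25.3% of all junctions tested, and 0 higher, against 0.937%. The median of the junction means was -0.24, against -0.30 over all junctions, and 113 of 212 (53.3%) were below 0 in both replicates, against 54.5%. Of the 37, 36 lay in 12 of the 13 cytosolic genes, which is 22.8% of cytosolic junctions, and 1 of 54 (1.85%) lay in a mitochondrial gene. The share was 9.11% for junctions of control genes and 27.3% for other scored genes. The fit gave all junctions the same SE at Day 21, 0.36, so adjusted p there ranks junctions by their mean alone.

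Nearly all junction calls, too, came after Day 7. At Day 7, 1 of 212 was called lower, against 0.625% of all junctions, and it lay in MARS. At Day 14, 33 were called, against 21.9%, all of them cytosolic, and 29 were called at both Day 14 and Day 21. Between Day 7 and Day 21 the change itself was called for 37 junctions, against 23.2%, and 35 of those were among the ones lower at Day 21. Of the 37 junctions called at Day 21, 20 were called under every alternative that could be run on them.

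The lowest junction of all lay in IARS, at chr9:92258998-92260150 (JUNC00122328), the 16th of 25 targeted junctions from the 5′ end. Its 8 guides averaged -1.15 and -2.38 at Day 7, -2.96 and -3.66 at Day 14, and -3.75 and -4.83 at Day 21. The Day 21 mean of -4.29 (SE 0.36, limma adjusted p = 7.45e-31) is a 19.5-fold loss. This SE is the one given to all junctions, whereas the SD between the replicates of this junction was 0.77. Of the 8 guides 6 were at -1 or lower in both replicates, and the median guide was at -5.86. IARS had 8 of 23 tested junctions called lower, the largest number of any synthetase. The other 7 ran from -1.04 at chr9:92286618-92287790 to -2.16 at chr9:92271655-92274425, and they lay from the first targeted junction (chr9:92287910-92288125, -1.37) to the 23rd (chr9:92243311-92244958, -2.12). Not all of these calls were firm. Those at chr9:92286618-92287790 and chr9:92277923-92278198 held under 4 of 7 alternatives. The call at chr9:92249941-92250186 held under 5 of 7 and that at chr9:92250289-92250712 under 6 of 7. The highest IARS junction was at 0.25, which makes a range of 4.53 within one gene, the widest of the 20.

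In SARS 4 of 5 junctions were called lower, so the loss was spread over its targeted junctions. The first junction, chr1:109228432-109229413 (JUNC00014037), averaged -0.66 and -0.59 at Day 7, -3.29 and -3.36 at Day 14, and -3.39 and -4.03 at Day 21. Most of its fall was present by Day 14 in both replicates. Of the later junctions, chr1:109235431-109235976 stood at -1.24, chr1:109236106-109236390 at -2.01 and chr1:109237373-109237730 at -1.35 at Day 21. The last of these was at -2.10 in replicate 1 and -0.59 in replicate 2 and was not called without replicate 1 (limma adjusted p = 0.175). With the median of its guides, chr1:109235431-109235976 was at -0.76 and was not called (limma adjusted p = 0.197). The junction not called with the mean of its guides was at -0.37. Without its first junction the gene mean of SARS was -1.22, still below that of every other synthetase gene.

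CARS had a single junction far below the rest. At chr11:3018511-3018619 (JUNC00140415), its 4 guides averaged -0.07 and -1.17 at Day 7, -1.68 and -3.24 at Day 14, and -3.01 and -5.05 at Day 21. Replicate 2 was the lower one at each day. A further pair of CARS junctions were called, chr11:3029443-3038049 at -2.11 and chr11:3026797-3028995 at -1.21, and the other 11 were not. The highest was at 0.42 and the median CARS junction at -0.10, and leaving out the lowest junction moved the gene mean from -0.48 to -0.33.

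VARS showed the same shape over more junctions, with 5 of 23 called. At chr6:31784714-31785245 (JUNC00086770) the 8 guides averaged -0.02 and -0.62 at Day 7, -2.46 and -3.65 at Day 14, and -3.45 and -3.70 at Day 21. The next called junction, chr6:31784308-31784393, was at -2.03 and -1.60. The remaining called junctions of VARS were at -1.28, -1.17 and -0.96, while its median junction was at -0.21 and its highest at 0.40. The one at -1.28, chr6:31792895-31792985, was at -0.65 in replicate 1 and -1.92 in replicate 2 and was called under 6 of 7 alternatives.

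MARS, typed as non-essential, carried 1 strongly depleted junction among 13 tested. The 5 guides at chr12:57504299-57511697 (JUNC00162231) averaged -1.32 and -1.86 at Day 7, -2.37 and -3.20 at Day 14, and -3.36 and -3.37 at Day 21. It was the junction called at Day 7 (limma adjusted p = 0.0389), and its Day 21 mean of -3.37 is a 10.3-fold loss with all 5 guides below 0 in both replicates. No other MARS junction was called at Day 21. At Day 14 chr12:57514851-57514953 was also called, at -0.93 and -1.01 (limma adjusted p = 0.0134), and it stood at -0.30 and -1.27 at Day 21 (0.0969). The highest MARS junction was at 0.56 at Day 21, and the gene mean without the lowest junction was -0.05.

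LARS had 1 called junction of 6 tested, chr5:146133081-146135600 (JUNC00080713), at -1.99 and -2.81 at Day 21. Its other tested junctions had Day 21 means from -0.26 to -0.21. Leaving out the called junction moved the gene mean of LARS from -0.77 to -0.46. A neighbouring LARS junction with only 2 guides, chr5:146131109-146132897, was at -3.09 and -2.59, with guide means of -6.05 and 0.37, and was not tested. It is one of 10 synthetase junctions with fewer than 3 guides, all cytosolic, whose 15 guides gave junction means from -2.84 to 0.87.

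Called junctions of 5 other cytosolic genes had Day 21 means of -2.10 or higher. QARS had 3 (chr3:49098989-49099109 at -2.10, chr3:49099431-49099509 at -1.76 and chr3:49101899-49102204 at -1.41 and -0.59). FARSB had 3 adjacent ones, the 8th to the 10th of its 12 targeted junctions, at -1.98, -1.34 and -1.23, spanning chr2:222619737-222624713. FARSA also had 3, at -1.51 (chr19:12925003-12925089), -1.37 (chr19:12930749-12933549) and -1.09 (chr19:12924526-12924638). YARS had 2, the 5′-most of its 8 junctions (chr1:32797843-32806481, -1.98) and a later one (chr1:32780278-32781047, -1.71), and its other 6 lay between -0.67 and 0.36. DARS had 1, chr2:135961498-135979273, at -1.52 and -0.56. With the median in place of the mean of a junction's guides, the 5′-most YARS junction was at -0.56 (limma adjusted p = 0.43) and the lowest QARS junction at -0.97 (0.0873). FARSA at chr19:12924526-12924638 was not called without replicate 2 (-0.71, limma adjusted p = 0.067), nor FARSB at chr2:222619737-222623649 without replicate 1 (-0.88, 0.106). Without replicate 1 the calls of QARS at chr3:49101899-49102204 (limma adjusted p = 0.168) and of DARS (0.148) were lost too. HARS had 0 of 7 called, with junction means from -0.08 to 0.49.

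The single mitochondrial junction called at Day 21 against Day 0 was RARS2 at chr6:87530942-87541917, with -0.15 and 0.03 at Day 7, -0.69 and -0.56 at Day 14, and -1.80 and -0.62 at Day 21 over 7 guides. Its replicates lay apart at Day 21 (SD 0.84), and with values centred on all guides it was not called (limma adjusted p = 0.0653). The lowest junctions of the other mitochondrial genes at Day 21 ran from 0.03 in YARS2 to -0.88 in CARS2. This CARS2 junction, chr13:110701555-110705520, was at -1.18 and -0.58 at Day 21 (limma adjusted p = 0.052), and its change from Day 7 to Day 21 was called (-0.99, limma adjusted p = 0.0181).

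Mitochondrial junctions were less spread than cytosolic ones. The SD of the junction means at Day 21 was 0.885 over 158 cytosolic and 0.37 over 54 mitochondrial junctions. Across junctions, Pearson's r between the replicates was 0.805 and 0.342, a description over junctions that share genes and libraries. The median SD of the guides within a junction was close in both compartments, at 0.935 and 0.864. The largest SD within a junction differed, at 3.3 for cytosolic and 1.36 for mitochondrial junctions.

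Called junctions lay in each part of the targeted stretch of a gene, which need not cover the whole transcript. By position among the targeted junctions of a gene, 14 of 60 in the part nearest the 5′ end were called lower at Day 21, 8 of 74 in the middle and 15 of 78 nearest the 3′ end. By the deposited junction category, whose definitions were not given, 24 of 109 "common" junctions were called, 9 of 58 "single_unique", 4 of 40 "partial_unique" and 0 of 5 "fully_unique". Over all junctions tested the share was 25.3%, and it was not split by position or category. The category is tied to the gene, since 16 of the 20 genes hold a single category.

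KARS is one of the 4 genes with mixed categories, beside MARS, LARS2 and RARS2. Its fully_unique junctions are a pair that share the coordinate 75641723 on chromosome 16 and end at 75647577 or at 75644282. The first of them stood at -0.57 and 0.25 at Day 21 and the second at 0.26 and 0.47, and neither was called. Of its 8 partial_unique junctions 2 were called, chr16:75640349-75641563 at -1.55 and chr16:75634292-75635679 at -1.38. The KARS guides averaged 0.12 over the fully_unique and -0.29 over the partial_unique junctions, but the fully_unique mean was -0.13 in replicate 1, equal to the partial_unique mean there, and 0.37 in replicate 2.

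Single guides of a junction differed as widely as junctions did. At Day 7 limma called 11 of 1616 synthetase guides lower, against 2.1% of all guides, and at Day 14 it called 80, against 7.96%. At Day 21 it called 123 of 1616 synthetase guides lower (7.61%), against 11.1% of all guides, and 2 higher, against 0.218%. Cytosolic genes held 119 of the lower guides, 9.97% of their 1193, and mitochondrial genes 4, which is 0.946% of their 423. The share was 1.04% for non-targeting guides, 2.71% for control and 11.8% for other scored guides. In each replicate 31 synthetase guides (1.92%) had an implied number of 1 at Day 21. Over all guides the share was larger, 3.03% in replicate 1 and 3.12% in replicate 2. Cytosolic guides made up all 31 in replicate 1 and 30 in replicate 2, which is 2.6% and 2.51% of cytosolic guides.

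The lowest guide of each called gene lay in that gene's lowest tested junction. For SARS it was guide 1 of JUNC00014037, at -0.86 and -1.17 at Day 7, -6.85 and -7.08 at Day 14, and -6.46 and -6.80 at Day 21. For IARS it was guide 6 of JUNC00122328, at -2.10 and -1.57, -3.99 and -2.91, and -6.41 and -6.89. Both were at an implied number of 1 in both Day 21 libraries, the smallest whole number, though implied numbers are lower bounds. For LARS it was guide 1 of JUNC00080713, which ended at -5.19 and -7.37, and for FARSA guide 6 of JUNC00232603, which ended at -5.15 and -6.39.

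Guides of the same junction ended at different levels. In LARS JUNC00080713, guides 1 to 4 had Day 21 means from -6.28 to -4.57, and guides 5 to 8 from -0.23 to 1.41. In VARS JUNC00086770, guides 1 to 5 had means from -7.15 to -3.03, guide 6 was at -0.51 and -3.39, and guides 7 and 8 had means of -0.35 and -0.41. In IARS JUNC00122328, guides 3, 4, 6, 7 and 8 had means from -6.65 to -5.82, whereas guide 5 was at -2.28, guide 1 at -0.94 and guide 2 at 0.23. What the guide number stands for was not stated. SARS JUNC00014037 had guide means spread from -6.63 to -1.90, though its guide 3 was at 0.19 in replicate 1 and -4.27 in replicate 2.

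Among the guides called higher was 1 against DARS, the cytosolic aspartate enzyme. Guide 8 of JUNC00039421 was at 0.55 and 0.62 at Day 7, 1.54 and 2.04 at Day 14, and 2.22 and 3.13 at Day 21 (mean 2.67, SE 0.82, limma adjusted p = 0.0252). It was above 0 in all 6 libraries, and no DARS junction was called higher.

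Other genes of the tRNA pathway were few in the table. Of 125 listed genes 31 were present and tested, and limma called 3 lower at Day 21 and 0 higher, against the 20.8% of all genes called lower. Their median was -0.28, equal to that of all genes tested. Of 13 genes for tRNA transcription and end processing 1 was called, GTF3C4, a subunit of the factor that recruits RNA polymerase III to tRNA genes, at -2.19 and -2.14 over 4 guides. Other listed GTF3C genes were not called. GTF3C1 had a mean of -0.06 over 240 guides, GTF3C3 of -0.66 over 40 and GTF3C6 of 0.04 over 24. Of 16 tRNA modification genes 1 was called, NFS1, at -4.20 and -3.34 over 8 guides. NFS1 is a cysteine desulfurase that provides sulfur for iron-sulfur clusters as well as for tRNA thiolation. The single export gene, XPO5, was called at -1.60 and -1.38 over 208 guides, and it is known mainly as the exporter of microRNA precursors. The single gene of mitochondrial tRNA maturation, HSD17B10, a subunit of mitochondrial RNase P, was at -0.33 and -0.54 and was not called (limma adjusted p = 0.145).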

How the data were processed

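Guide abundance was measured in genomic DNA of 8 libraries. Per the submitters' processing notes, cutadapt 3.5 and Bowtie 1.1.2 were used and hg38 is named as a build. The authors deposited 1 table of log2 fold changes per guide, day and replicate against Day 0, per the file headers; scaling, pseudocount and filters are not given in the sources used here. The deposited table also holds a GeCKO gene score, per the file headers, whose making is not given either. Junction coordinates are printed as deposited. All 20 genes matched RefSeq GRCh38.p14 by symbol, or by synonym and chromosome, and 222 of 222 junctions lay within the matched gene.

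Groups and replicate numbers came from the labels. Values were averaged over the guides of a gene or junction and fitted with limma 3.58.1 (R 4.3.3), each day alone, over 1223 genes and 6401 junctions with at least 3 guides, or 46829 guides. In simulated Day 21 data the fit recovered 45 of 67 genes changed by -1 and 65 of 67 changed by -2, with 5 false calls among the unchanged of 1223. For junctions it recovered 24 of 67 and 67 of 67, with 9 false calls among the unchanged of 6401. For guides it recovered 0 of 67 and 7 of 67, with 14 false calls among the unchanged of 46829. The simulated spread followed limma's own estimate, which gave all junctions the same SE. Whole-number ratios were read with a denominator of at most 2000 and a relative tolerance of 1e-10. The implied numbers are lower bounds.

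Library values are given for genes called at any day and for the 3 lowest and 3 highest of each compartment, with junctions called at Day 21, the 5 genes with the widest junction range and the lowest guide of each called gene; other values were chosen after they were seen. Members, lists and tests were chosen with earlier results of these data known. Replicate numbers tie a library to its own Day 0, and deviations of same-numbered libraries at different days correlated (gene level, r = 0.476 to 0.727). Alternatives covered gene medians, centring, a replicate block, filters on guides and on the implied Day 0 number of 50, robust empirical Bayes and each library left out in turn. The values of 1 gene by itself are not reported here; it stays in the group values.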

Additional observations from a re-analysis of the deposited data

Results flagged for a closer look

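In 2 synthetase genes the loss at Day 21 differed from the loss at Day 7 by limma's test of the within-replicate difference, with Benjamini-Hochberg adjustment over all genes. The difference was -1.52 for SARS (SE 0.22, adjusted p = 0.00032), lower in 2 of 2 replicates, and -0.64 for LARS (SE 0.21, adjusted p = 0.0477), also lower in 2 of 2 replicates.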

How the results depend on the processing

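The replicate number was used as a block because libraries of one number share a Day 0 library: with the replicate block in a single fit of all days, 9 genes were called at Day 14 and 10 at Day 21, with 76 junctions, 295 guides and 12 tRNA pathway genes, where the same fit called 40.5% and 51.1% of all genes, 44.1% of junctions and 23.4% of guides. The same fit without the block called 8 genes at Day 14, 10 at Day 21 and 9 pathway genes, where 33.5% and 41.9% of all genes were called. Both fits share an estimate of spread over the days that is too small for Day 21. With the median of a gene's guides, 1 gene was called at Day 14, 0 at Day 21, 0 between Day 7 and Day 21 and 0 pathway genes. The shares of all genes called there were 7.28% at Day 14, 2.04% at Day 21 and 3.76% between Day 7 and Day 21. Centring on the non-targeting guides left 1 gene at Day 21 and 1 between Day 7 and Day 21, against 16.4% and 22.2% of all genes. Centring on all guides left 1 at Day 14, 1 at Day 21 and 1 between Day 7 and Day 21, against 14.2%, 5.15% and 9.81% of all genes. It reversed CARS2 (0.20), KARS (0.10), LARS2 (0.19), MARS (0.10), NARS2 (0.17), RARS2 (0.06) and WARS2 (0.24) at Day 21. NARS2 also turned to 0.12 with guide medians and to 0.14 over guides with implied Day 0 numbers from 50 upwards, a filter that turned WARS2 to 0.17. WARS2 ran from -0.16 to 0.03 with 1 Day 21 library left out. Leaving out 1 library of a day, in fits chosen after seeing the data, gave 1 to 2 genes at Day 14, 5 to 8 at Day 21, 1 between Day 7 and Day 21 and 6 to 7 pathway genes. The cytosolic minus mitochondrial difference at Day 14 moved to -0.10 with the median over guides, -0.18 with gene medians and -0.29 without SARS, and at Day 21 to -0.15, -0.28 and -0.40, to -0.59 under that filter and to -0.43 without the lowest junctions. The last pair of exclusions, SARS and the lowest junctions, was also chosen after seeing the data. The cause of these changes was not tested. With 2 replicates a gene changed by -1 was missed in part of the simulations, and guides at an implied number of 1 have only a bound.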

Other observations

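The deposited GeCKO gene score, named after a pool of Cas9 knockout guides, was below 0 for all 837 genes that have one, with a range of -2.03 to -0.849 and a median of -1.12. Over the 20 synthetase genes it ran from -1.96 (DARS) to -0.88 (MARS), with a median of -1.07 over the 13 cytosolic and -1.13 over the 7 mitochondrial genes. Across the 20 genes, which share libraries and are not independent replicates, the score and the Day 21 mean in the Cas13d screen had Pearson's r = -0.157 and Spearman's rho = -0.1. The mitochondrial genes had GeCKO scores in the same range as the cytosolic genes, beside Cas13d means of -0.25 to 0.30.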
